A study of Sus scrofa with 12 samples.

Results

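The genes described here are core components of the circadian clock, namely ARNTL, CLOCK, PER1, PER2, PER3, CRY1, CRY2, NR1D1, NR1D2 and DBP. These 10 genes were taken by symbol as known parts of the clock. Of the 10 genes, 8 matched an entry among the 31694 genes listed for the liver mRNA libraries. PER3 was listed at 0 in all 6 libraries, and so were genes that liver is known to express, such as APOB, so PER3 can only be described as listed at 0. NR1D1 and DBP were not matched by symbol and were not analysed here. The remaining 7 genes were among the 12993 genes tested.

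The liver samples came from Jinhua (JH) pigs, a Chinese breed, and Landrace (LD) pigs, a lean breed of European origin. Each breed was represented by 3 uncastrated males aged 70 days, and each pig gave 1 mRNA library and 1 small RNA library. The libraries are named JH1, JH2, JH3, LD1, LD2 and LD3. Gene levels are RPKM, reads scaled to gene length and to the reads of the library. The read totals behind them were inferred from the RPKM values as 5744908, 7757538 and 7736804 reads in JH and 7100537, 7894141 and 7914516 reads in LD. In every library this total is well below the number of clean reads that the paper gives. The reason for the gap was not tested, and the read numbers per gene given below are inferred in the same way. The comparison asked whether the clock genes of JH and LD stood at opposite points of their daily cycle at sampling. The labels and the methods give no hour of sampling, so hour and breed cannot be told apart in these data.

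In the mammalian clock, ARNTL (BMAL1) and CLOCK pair to switch on the PER and CRY genes, whose proteins then block that pair. ARNTL and CLOCK also switch on the REV-ERB genes NR1D1 and NR1D2, whose proteins repress ARNTL, so that in liver the transcripts of ARNTL and of the REV-ERB genes peak at opposite times of day. The liver clock drives daily rhythms in bile acid, heme, glycogen and lipid metabolism, and feeding time is a strong cue for it.

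The activators ARNTL and CLOCK were lower in each JH library than in each LD library, and the repressor PER2 was higher in each JH library than in each LD library. PER1, CRY1, CRY2 and NR1D2 overlapped between the breeds. No clock gene was called as a differentially expressed gene (DEG), which required an absolute log2 fold change above 1 and a limma p below 0.05 after Benjamini-Hochberg adjustment. That was 0 of 7 genes, beside 2.39% of all genes tested, and the count was also 0 of 7, beside 2.39%, at the adjusted p with no limit on fold. At an unadjusted limma p below 0.05 the count was 3 of 7, beside 17.9% of all genes. Of these 3 genes, 1 was higher in JH, beside 8.35% of all genes, and 2 were lower in JH, beside 9.51%. The same 3 genes had JH and LD values that did not overlap, beside 23.4% of all genes. Fitting limma voom to read numbers recovered from the RPKM values called 1 of the 7 genes, PER2, beside 3.10% of the 12796 genes it tested. With JH over LD, the median log2 fold change was 0.59 for the 7 genes and 0.04 for all genes tested. Unless another setting is named, fold changes of genes refer to log2(RPKM + 0.1), which understates differences of low genes.

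**Figure D1:**
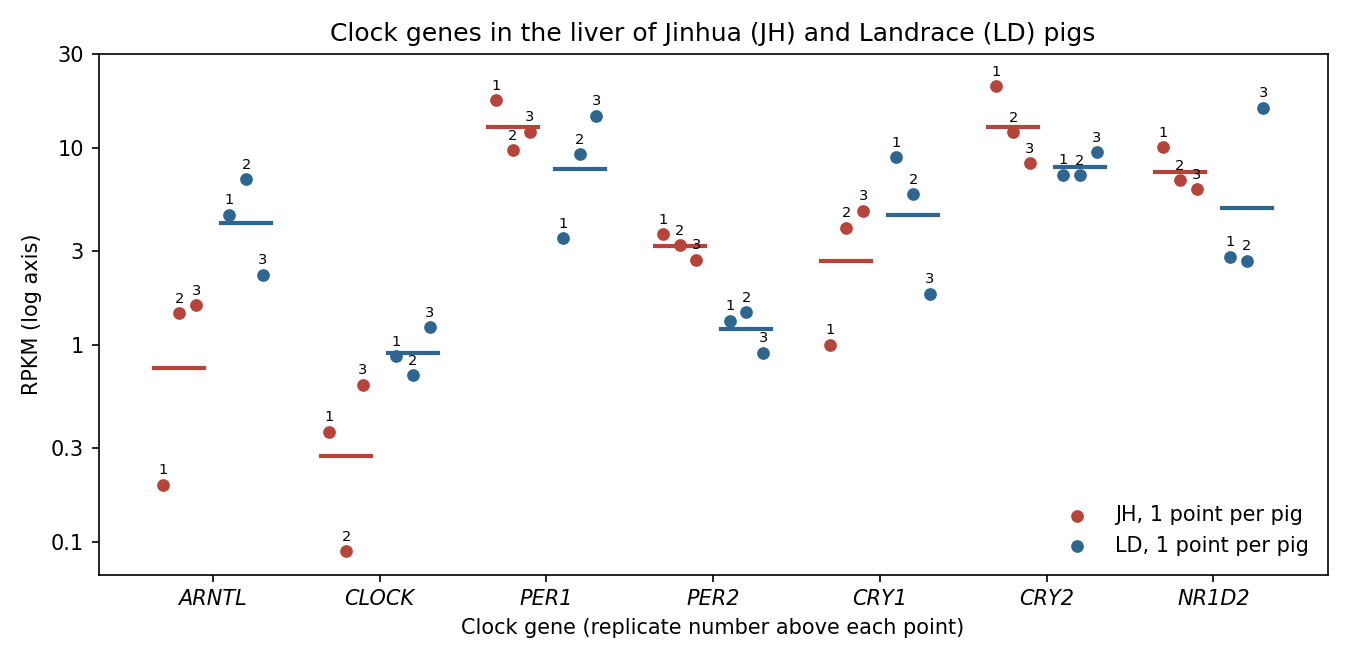
RPKM of the 7 clock genes with values above 0, on a log axis, with 1 point per pig, the replicate number above each point and a bar at the geometric mean of each breed. The breeds lie apart for ARNTL, CLOCK and PER2 and overlap for the other genes, and JH1 and LD3 lie away from their own breed in CRY1 and, for LD3, in NR1D2.

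ARNTL, which forms the activator pair with CLOCK, was at 0.195, 1.44 and 1.59 RPKM in JH1, JH2 and JH3. It was at 4.57, 6.95 and 2.26 RPKM in LD1, LD2 and LD3. JH1 was far below the other JH pigs, LD3 was the lowest LD pig, and the highest JH pig remained below LD3. JH pigs averaged 1.08 ± 0.767 RPKM (SD, n = 3), against 4.60 ± 2.34 RPKM (SD, n = 3) for LD pigs. The log2 fold change was -2.22 with an SE of 0.67 and a 95% interval from -3.74 to -0.70, a level 4.66-fold higher in LD, and the limma adjusted p (Benjamini-Hochberg) was 0.132. Lower ARNTL in JH therefore did not pass the test across all genes, although it ranked 878 among them by p. The values rest on few reads, 1, 10 and 11 in JH and 29, 49 and 16 in LD, over a gene length of 893 bases implied by the RPKM values. The log2 fold change was -1.40 without JH1, -2.65 without LD3 and -1.42 with a pseudocount of 1.

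CLOCK, the partner of ARNTL, was the lowest of the 7 genes. Its RPKM was 0.361, 0.0892 and 0.626 in JH1, JH2 and JH3 and 0.877, 0.701 and 1.22 in LD1, LD2 and LD3. The breeds did not overlap, but JH3 and LD2 lay close together. CLOCK had a log2 fold change of -1.34 with an SE of 0.59, its 95% interval ran from -2.68 to -0.01, and the limma adjusted p (Benjamini-Hochberg) was 0.275. These levels rest on 11 reads in JH and 31 in LD over all pigs of each breed, with 1 read in JH2. The log2 fold change was -0.81 without JH2 and -0.52 with a pseudocount of 1, and an unadjusted limma p below 0.05 was reached in 6 of 15 alternatives.

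PER2, a repressor that also responds to feeding and hormonal cues, was at 3.64, 3.21 and 2.71 RPKM in JH1, JH2 and JH3. In LD1, LD2 and LD3 it was at 1.32, 1.46 and 0.912 RPKM. Within each breed the pigs were close together, and a clear gap separated the lowest JH pig from the highest LD pig. JH pigs averaged 3.19 ± 0.469 RPKM (SD, n = 3), against 1.23 ± 0.286 RPKM (SD, n = 3) for LD pigs. The log2 fold change was 1.32 with an SE of 0.30 and a 95% interval from 0.64 to 1.99, a level 2.49-fold higher in JH. The limma adjusted p (Benjamini-Hochberg) was 0.0586, just outside the threshold, and over the alternatives tried it ran from 0.0263 to 0.319. PER2 had 58, 69 and 58 reads in JH and 26, 32 and 20 in LD, and it had the lowest p of the 7 genes. It was inside the threshold with quantile normalization (limma adjusted p 0.0263), with libraries scaled to a common median (limma adjusted p 0.0339) and with voom (limma adjusted p 0.0487).

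PER1, a repressor that hormones such as glucocorticoids switch on quickly, was at 17.5, 9.71 and 12.07 RPKM in JH1, JH2 and JH3 and at 3.48, 9.28 and 14.6 RPKM in LD1, LD2 and LD3. LD1 was the lowest of all pigs, while LD3 was above JH2 and JH3. PER1 had a log2 fold change of 0.70 with an SE of 0.48 and the limma adjusted p (Benjamini-Hochberg) was 0.488. Without LD1 the log2 fold change was 0.13, and without LD3 it was 1.15. Unlike in PER2, the LD pigs were spread in PER1, from far below the lowest JH pig to above JH2 and JH3.

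CRY1 and CRY2 encode the cryptochromes, which form the repressor complex together with the PER proteins. CRY1 was at 1.00, 3.93 and 4.80 RPKM in JH1, JH2 and JH3 and at 8.99, 5.82 and 1.81 RPKM in LD1, LD2 and LD3. The lowest values belonged to JH1 and LD3, and the other LD pigs were above the other JH pigs. CRY1 had a log2 fold change of -0.75 with an SE of 0.67 and a limma adjusted p (Benjamini-Hochberg) of 0.598. It was -1.40 without LD3 and -1.16 without JH3, but -0.27 without LD1 and -0.08 without JH1.

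CRY2 was at 20.6, 12.0 and 8.36 RPKM in JH1, JH2 and JH3 and at 7.30, 7.25 and 9.51 RPKM in LD1, LD2 and LD3. JH1 had the highest CRY2 of the 6 pigs and the lowest CRY1, while JH3 lay within the LD range. CRY2 had a log2 fold change of 0.67 with an SE of 0.34 and a limma adjusted p (Benjamini-Hochberg) of 0.338. It was 0.33 without JH1 and 0.98 without JH3.

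NR1D2 encodes REV-ERB beta, which represses ARNTL together with its close relative NR1D1. NR1D2 was at 10.1, 6.83 and 6.18 RPKM in JH1, JH2 and JH3. It was at 2.80, 2.67 and 16.0 RPKM in LD1, LD2 and LD3. LD1 and LD2 were below every JH pig, but LD3 was above all of them, so the breeds overlapped through 1 pig. The log2 fold change was 0.59 with an SE of 0.61 and a 95% interval from -0.78 to 1.96, and the limma adjusted p (Benjamini-Hochberg) was 0.653. Without LD3 the log2 fold change was 1.43 with a limma adjusted p (Benjamini-Hochberg) of 0.0839, in a range over the alternatives from 0.0839 to 0.929. It was 0.16 without LD2, 0.19 without LD1 and 0.38 without JH1. The high value of LD3 rests on 630 reads, against 99 in LD1 and 105 in LD2, so counting error is small beside the gap.

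The pigs of each breed were thus not uniform, and JH1 and LD3 shared a pattern. Each had the lowest ARNTL and the lowest CRY1 of its breed and the highest NR1D2, PER1 and CRY2 of its breed. PER2 and CLOCK did not follow this pattern, as LD3 had the lowest PER2 and the highest CLOCK of the 6 pigs, and CLOCK was lower in JH2 than in JH1. The difference of ARNTL and NR1D2 on the log2 scale was chosen after the values had been seen, in place of the planned difference of ARNTL and NR1D1. It was -5.11, -2.17 and -1.89 in JH1, JH2 and JH3 and 0.69, 1.35 and -2.77 in LD1, LD2 and LD3. ARNTL exceeded NR1D2 in LD1 and LD2, and NR1D2 exceeded ARNTL in LD3 and in every JH pig. JH pigs averaged -3.06 ± 1.78 (SD, n = 3), against -0.24 ± 2.21 (SD, n = 3) for LD pigs, and JH minus LD was -2.81. That value was -4.07 without LD3, -1.79 without JH1, -3.05 without both pigs, -2.60 with quantile normalization and -1.88 with a pseudocount of 1.

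The difference of ARNTL and PER2 on the log2 scale was -3.67, -1.10 and -0.73 in JH1, JH2 and JH3 and 1.72, 2.17 and 1.22 in LD1, LD2 and LD3. PER2 exceeded ARNTL in every JH pig and ARNTL exceeded PER2 in every LD pig. That the breeds lie apart here follows from the values of the genes given above and adds no further result. Which gene is higher in a pig also depends on the gene models, with implied lengths of 893 bases for ARNTL, 2771 for PER2 and 4980 for NR1D2. The difference of CRY1 and CRY2 on the same scale was -4.24, -1.59 and -0.79 in JH1, JH2 and JH3 and 0.30, -0.31 and -2.33 in LD1, LD2 and LD3. CRY2 was above CRY1 in each pig except LD1, and LD3 again lay among the JH pigs. No p is given for these differences, since they combine genes chosen with earlier results known.

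Across the 7 genes, the order of mean RPKM over the 6 libraries began with PER1 at 11.1 ± 4.85 (SD, n = 6), CRY2 at 10.8 ± 5.11 and NR1D2 at 7.42 ± 5.02. CRY1 followed at 4.39 ± 2.89, then ARNTL at 2.84 ± 2.48, PER2 at 2.21 ± 1.13 and CLOCK at 0.647 ± 0.396. Neighbours in this order from PER1 down to PER2 differed by less than the larger SD of the pair. The order turned with breed for ARNTL and PER2, with means of 4.60 and 1.23 RPKM in LD but 1.08 and 3.19 RPKM in JH, and for PER1 and CRY2, with means of 9.12 and 8.02 RPKM in LD but 13.1 and 13.7 RPKM in JH. PER2 and CLOCK differed by more than either SD, yet in LD3 CLOCK was above PER2. RPKM is a level per gene length, and for ARNTL and CLOCK the implied lengths of 893 and 1444 bases are short beside 4861 bases for PER1, so this order depends on the gene models the authors used. Among all genes tested, mean RPKM placed PER1 at percentile 69.2, ARNTL at 36.1 and CLOCK at 5.36.

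The other clock genes comprise further transcription factors, kinases and ubiquitin ligases that act on clock proteins. Of 21 such genes, 17 were matched and 15 tested, and limma called 0 as DEGs, beside 2.39% of all genes, and 1 at an unadjusted p below 0.05, beside 17.9%. Their median log2 fold change was -0.10, beside 0.04 over all genes. The gene past the unadjusted threshold was USP2, a deubiquitinase with a strong daily rhythm in liver. It was at 18.6, 7.89 and 9.63 RPKM in JH1, JH2 and JH3 and at 0.905, 3.20 and 7.82 RPKM in LD1, LD2 and LD3. The breeds were apart by a narrow margin between JH2 and LD3, and LD1 stood lowest, as it did for PER1. USP2 had a log2 fold change of 1.93 with an SE of 0.66 and a limma adjusted p (Benjamini-Hochberg) of 0.170. It no longer passed the unadjusted threshold without JH1, where the log2 fold change was 1.57, and the fold change was 1.15 without LD1.

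BHLHE40, a repressor that competes with the activator pair for its binding sites, had the highest mean among these other clock genes. It was at 37.3, 10.3 and 16.9 RPKM in JH1, JH2 and JH3 and at 13.7, 18.1 and 17.8 RPKM in LD1, LD2 and LD3. JH1 was high and the other JH pigs lay around the LD pigs, and the log2 fold change was 0.18 with an SE of 0.42. NPAS2, which can take the place of CLOCK and was chosen after its values had been seen, was at 0.425, 0.840 and 1.05 RPKM in JH1, JH2 and JH3 and at 1.19, 1.51 and 0.480 RPKM in LD1, LD2 and LD3. JH1 and LD3 were the lowest of their breeds in NPAS2, as they were in ARNTL and CRY1.

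**Figure D2:**
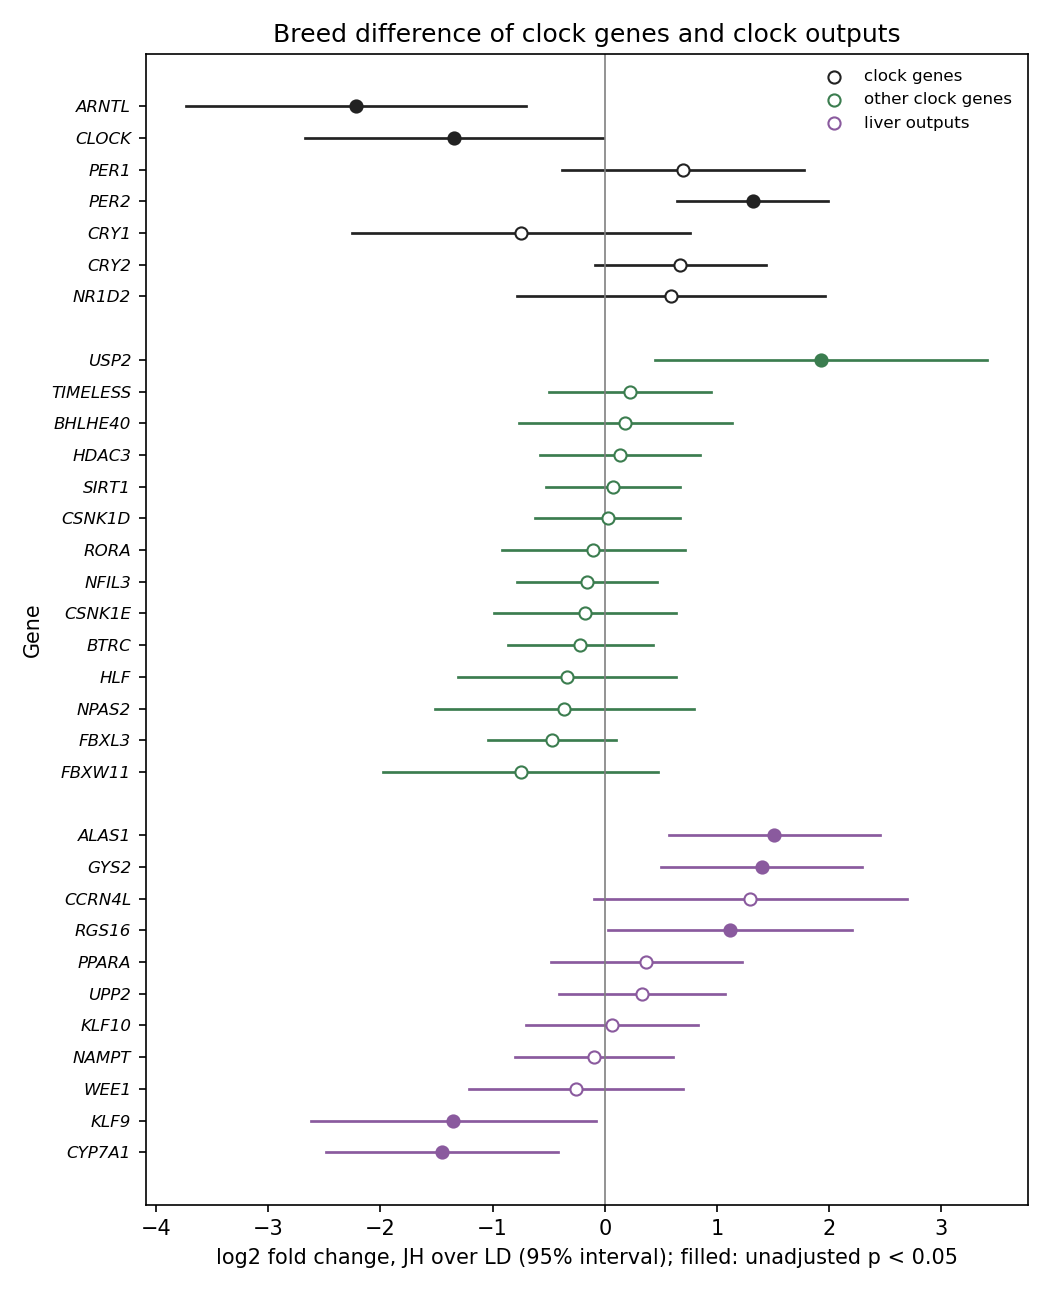
Log2 fold change of JH over LD with 95% intervals from limma for the 7 clock genes, 14 of the 15 other clock genes tested and 11 clock-driven liver genes, with filled points at an unadjusted p below 0.05. ARNTL at -2.22 and USP2 at 1.93 lie farthest from 0, and none of the genes passed the adjusted threshold.

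Genes that the liver clock is known to drive were examined as its output. Of 17 such symbols, 14 were matched and 11 tested. NOCT was not matched, but CCRN4L, an older symbol of the same gene, was tested. Among the 11 genes limma called 0 as DEGs, beside 2.39% of all genes, and 5 at an unadjusted p below 0.05, beside 17.9%. ALAS1, GYS2 and RGS16 were on the JH side and CYP7A1 and KLF9 on the LD side. The median log2 fold change of the 11 genes was 0.33, beside 0.04 over all genes, and the count of 5 became 3 without LD2. POR, KLF15 and ELOVL3 were listed at 0 in all 6 libraries.

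ALAS1, the rate-limiting enzyme of heme synthesis, had the highest mean of the output genes. It was at 621, 437 and 410 RPKM in JH1, JH2 and JH3 and at 88.0, 182 and 300 RPKM in LD1, LD2 and LD3. Every JH pig was above every LD pig, and LD3 was the LD pig nearest to JH. The log2 fold change was 1.51 with an SE of 0.42 and a limma adjusted p (Benjamini-Hochberg) of 0.106. GYS2, the glycogen synthase of liver, was at 139, 43.9 and 55.0 RPKM in JH1, JH2 and JH3 and at 27.2, 25.5 and 26.3 RPKM in LD1, LD2 and LD3. The LD pigs were nearly equal in GYS2 and all JH pigs were above them, with JH1 far above. GYS2 had a log2 fold change of 1.40 with an SE of 0.40 and a limma adjusted p (Benjamini-Hochberg) of 0.114, and without JH1 the fold change was 0.90.

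CYP7A1, the rate-limiting enzyme of bile acid synthesis, was at 6.68, 12.9 and 28.5 RPKM in JH1, JH2 and JH3 and at 31.5, 44.8 and 36.2 RPKM in LD1, LD2 and LD3. The breeds did not overlap, but JH3 lay near LD1. CYP7A1 had a log2 fold change of -1.45 with an SE of 0.46 and a limma adjusted p (Benjamini-Hochberg) of 0.147, and the fold change was -0.95 without JH1. KLF9, a transcription factor that follows both the clock and glucocorticoids, was at 7.34, 2.46 and 10.1995 RPKM in JH1, JH2 and JH3 and at 8.05, 14.5 and 27.3 RPKM in LD1, LD2 and LD3. JH3 was above LD1 in KLF9, so the breeds overlapped, and the log2 fold change was -1.35 with an SE of 0.56. KLF9 reached the unadjusted threshold in 10 of 16 alternatives, and its log2 fold change was -0.76 without JH2. RGS16, a regulator of G protein signalling with a feeding-related rhythm, was at 33.2, 15.3 and 11.5 RPKM in JH1, JH2 and JH3 and at 13.6, 9.41 and 4.38 RPKM in LD1, LD2 and LD3. Its breeds overlapped through JH3 and LD1, and its log2 fold change of 1.12 became 0.68 without JH1, 0.67 without LD3 and 0.23 without both. RGS16 reached the unadjusted threshold in 9 of 16 alternatives.

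Glucocorticoids, feeding, temperature and handling can each reset clock genes or switch on PER1, so genes known to respond to them were set beside the clock genes. Of all genes tested, 2.39% were DEGs and 17.9% had an unadjusted limma p below 0.05, and the count of 1 in each of the 4 lists that follow is near the latter share. Of 7 glucocorticoid response genes, PER1 among them, 6 were tested, with a median log2 fold change of 0.14, 0 were DEGs and 1 had an unadjusted limma p below 0.05. That gene was FKBP5, at 29.9, 16.3 and 30.4 RPKM in JH1, JH2 and JH3 and at 4.96, 5.07 and 15.4 RPKM in LD1, LD2 and LD3. All JH pigs exceeded all LD pigs in FKBP5, with LD3 nearest to JH, as for ALAS1. Its log2 fold change was 1.74 with an SE of 0.45 and a limma adjusted p (Benjamini-Hochberg) of 0.0919. SGK1, named after its values were seen, differed the other way, with all JH pigs below all LD pigs and a log2 fold change of -0.64 with an SE of 0.30. TAT, the most abundant gene of that list, had a log2 fold change of 0.13 with an SE of 0.48. The part of glucocorticoids in the clock gene values was not tested.

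Of 9 feeding response genes, 5 were tested, with a median log2 fold change of -0.33, 0 were DEGs and 1 had an unadjusted limma p below 0.05, TXNIP, with a log2 fold change of -0.69 and an SE of 0.30. PCK1, a gluconeogenic enzyme induced by fasting and the most abundant gene of that list, was at 753, 85.0 and 28.0 RPKM in JH1, JH2 and JH3 and at 99.4, 113 and 169 RPKM in LD1, LD2 and LD3. JH1 and LD3, the pigs with the lowest ARNTL of their breeds, also had the highest PCK1 of their breeds. Other fasting-induced genes, chosen after their values had been seen, differed from PCK1 in JH. PDK4 was at 20.7, 45.7 and 31.5 RPKM in JH1, JH2 and JH3 and at 26.7, 46.3 and 96.2 RPKM in LD1, LD2 and LD3, and IGFBP1 was at 10.8, 8.78 and 87.2 RPKM in JH1, JH2 and JH3 and at 4.88, 40.3 and 83.5 RPKM in LD1, LD2 and LD3. LD3 was the highest LD pig for both, but JH1 was the lowest JH pig for PDK4 and far below JH3 for IGFBP1. The part of feeding in the clock gene values was not tested. Of 8 temperature response genes, 6 were tested, with a median log2 fold change of 0.45, 0 were DEGs and 1 had an unadjusted limma p below 0.05, RBM3, with a log2 fold change of 0.91 and an SE of 0.38. The most abundant of these was HSP90AA1, with a log2 fold change of 0.53 and an SE of 0.29. Of 8 immediate early genes, 5 were tested, with a median log2 fold change of -0.34, 0 were DEGs and 1 had an unadjusted limma p below 0.05, EGR1, with a log2 fold change of -1.62 and an SE of 0.65. The most abundant of these was IER2, with a log2 fold change of 0.32 and an SE of 0.62, and the part of temperature and handling in the clock gene values was not tested.

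Genes outside the lists were ranked by how closely their log2 levels followed ARNTL or NR1D2 over the 6 libraries, among 7368 genes that reached 1 RPKM in every library and had a symbol other than a LOC identifier. For ARNTL the highest Pearson r belonged to NADK2 at 0.993, ZBTB38 at 0.990, TMEM37 at 0.977, PALMD at 0.969 and WDFY1 at 0.968. NADK2, a mitochondrial NAD kinase, was at 35.1, 58.9 and 56.2 RPKM in JH1, JH2 and JH3 and at 73.1, 85.4 and 59.7 RPKM in LD1, LD2 and LD3. As in ARNTL, JH1 was lowest, LD2 highest and LD3 just above the other JH pigs. For NR1D2, used because NR1D1 was not analysed, the highest r belonged to ITGA9 at 0.951, L1CAM at 0.943, TMEM2 at 0.926, RANBP17 at 0.924 and DEPDC7 at 0.895. ITGA9 was at 28.9, 24.6 and 23.9 RPKM in JH1, JH2 and JH3 and at 21.1, 22.6 and 31.8 RPKM in LD1, LD2 and LD3, with LD3 highest as in NR1D2. These r are the highest of many over few libraries of 2 breeds, so they describe likeness only and carry no p.

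The small RNA libraries, with levels in RPM, reads scaled to the clean reads of the library, and 10672377 to 13932324 clean reads each, held miRNAs that are known to act on clock genes or to follow the clock. Of 16 names, 13 were matched and 12 tested. A miRNA was called where its absolute log2 fold change exceeded 1 at an unadjusted limma p below 0.05, which held for 1 of the 12, beside 12.4% of the 241 miRNAs tested. At the unadjusted p alone it was 3 of the 12, beside 29.9%. The median log2 fold change was -0.10 over the 12 and -0.30 over all miRNAs tested.

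The called miRNA was ssc-miR-132, known to respond to light in the brain clock, at 1.74, 0.984 and 0.937 RPM in JH1, JH2 and JH3 and at 2.70, 3.54 and 3.80 RPM in LD1, LD2 and LD3. All JH pigs were below all LD pigs. Its log2 fold change was -1.18 with an SE of 0.34 and a limma adjusted p (Benjamini-Hochberg) of 0.0420, but it rests on 22, 12 and 10 reads in JH and 36, 45 and 53 in LD. Over the alternatives its limma adjusted p (Benjamini-Hochberg) ran from 0.0324 to 0.163, and it was above 0.05 with quantile normalization and whenever a pig other than JH1 was left out. It was not called with a pseudocount of 5, where the fold change was -0.42, or with quantile normalization, which called ssc-miR-219a instead. ssc-miR-219a, a clock-driven miRNA of the brain, was at 3.01, 3.36 and 2.998 RPM in JH1, JH2 and JH3 and at 1.27, 1.49 and 1.44 RPM in LD1, LD2 and LD3. The breeds were well apart, with a log2 fold change of 0.93, an SE of 0.30 and a limma adjusted p (Benjamini-Hochberg) of 0.0629. With a pseudocount of 5 the fold change was 0.34, but the limma adjusted p (Benjamini-Hochberg) was 0.0475, below 0.05. ssc-miR-185, described as acting on CRY1, was at 109, 107 and 158 RPM in JH1, JH2 and JH3 and at 178, 214 and 207 RPM in LD1, LD2 and LD3. It was lower in all JH pigs than in all LD pigs, with a log2 fold change of -0.70, an SE of 0.23 and a limma adjusted p (Benjamini-Hochberg) of 0.0644. It did not reach the unadjusted threshold with quantile normalization, where the fold change was -0.35, or without LD2, where it was -0.64. Without JH3 the fold change was -0.88 and the limma adjusted p (Benjamini-Hochberg) was 0.0361, below 0.05. The most abundant of these miRNAs was ssc-miR-122, the main miRNA of hepatocytes, which averaged 201743 ± 69845 RPM (SD, n = 3) in JH, against 193588 ± 23124 RPM in LD, a log2 fold change of 0.01.

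Liver is a mixture of cells, and in bulk RNA fewer cells of a type cannot be told apart from less RNA per cell, which holds for the clock genes too. The hepatocyte markers matched the tissue label, with 7 of 8 above 0, ALB most abundant and APOB listed at 0. Their summed level was 56386, 62188 and 56567 RPKM in JH1, JH2 and JH3 and 88474, 72080 and 88840 RPKM in LD1, LD2 and LD3, so it was lower in JH, as ARNTL and CLOCK were. ALB was the largest part of that sum in every library. Of 7 tested, 4 were lower at an unadjusted limma p below 0.05, beside 9.51% of all genes. TTR was at a log2 fold change of -0.17 with an SE of 0.25, and only HP was on the JH side, at 0.31 with an SE of 0.35. The stellate cell markers, 8 of 8 above 0 with COL3A1 most abundant, summed to 79.9, 101 and 83.2 RPKM in JH and 300, 390 and 194 RPKM in LD, and 3 of the 8 were DEGs, beside 2.39% of all genes, as in the next lists. The bile duct markers, 4 of 6 above 0 with SPP1 most abundant, summed to 11.3, 15.7 and 7.08 RPKM in JH and 35.2, 35.0 and 15.1 RPKM in LD, and 1 of 3 tested was a DEG, EPCAM. The erythroid markers, 3 of 6 above 0 with HBB most abundant, summed to 99.3, 90.2 and 122 RPKM in JH and 393, 213 and 235 RPKM in LD, and 1 of 2 tested was a DEG, HBB. All DEGs in these marker lists were lower in JH, and PER2 had the opposite direction.

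The endothelial markers, 7 of 8 above 0 with CLEC4G most abundant, summed to 273, 214 and 168 RPKM in JH and 274, 265 and 216 RPKM in LD. That sum is mostly CLEC4G, and 2 of the 7 markers, PECAM1 at a log2 fold change of -0.81 and KDR at -0.91, were lower in JH at an unadjusted limma p below 0.05, beside 9.51% of all genes, with a list median of -0.48. The macrophage markers, 6 of 8 above 0 with C1QA most abundant and CD163 listed at 0, summed to 511, 956 and 472 RPKM in JH and 692, 718 and 770 RPKM in LD. Of 6 tested, 3 had an unadjusted limma p below 0.05, beside 17.9% of all genes, with log2 fold changes of 1.23 for CSF1R, 1.76 for C1QB and -0.65 for CD5L. The lymphocyte markers, 7 of 8 above 0 with NKG7 most abundant, summed to 27.1, 99.99 and 31.2 RPKM in JH and 40.8, 33.97 and 41.2 RPKM in LD. These sums overlapped between the breeds, with JH2 highest for macrophage and lymphocyte markers. The ribosomal RNA gene RN18S was at 5991, 1570 and 62257 RPKM in JH and 7309, 2108 and 20160 RPKM in LD, lowest in JH2 and LD2 and highest in JH3 and LD3. The part of these cell types and of ribosomal RNA in the clock gene values was not tested. Rescaling without RN18S moves all genes of a library by nearly the same factor, so it cannot decide this for single genes. It gave log2 fold changes of -2.32 for ARNTL and 1.21 for PER2, and the median of all genes moved from 0.04 to -0.08.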

How the data were processed

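Liver mRNA and small RNA of 3 JH and 3 LD pigs were grouped by breed and replicate from the sample labels. The authors aligned 50-base single reads to the pig genome with TopHat2 2.0.13, counted reads per gene and deposited RPKM values, and for miRNAs they deposited RPM values. Breeds were compared with limma 3.58.1 (R 4.3.3) on log2 values with a pseudocount of 0.1 RPKM or 0.5 RPM, keeping genes that reached 0.5 RPKM, and miRNAs that reached 1 RPM, in 3 or more libraries, with Benjamini-Hochberg adjustment over all genes or all miRNAs tested. The authors' test for genes needs read counts and was not used. An exact permutation test of 3 against 3 pigs cannot give a two-sided p below 0.1.

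Reads per gene were recovered from the steps of the RPKM values for 16270 of 19614 genes above 0 (83.0%), after a test on simulated data. The recovered reads were from 36.8% (JH3) to 49.1% (JH1) of the inferred read total of a library. Their share of the clean reads given in the paper is smaller, since the inferred totals are below those numbers. The miRNA values tested were all whole numbers of reads within 0.02 reads, and the lowest value above 0 was 10 reads. Several reads can stem from 1 molecule, so read numbers speak for counting error alone.

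The clock genes and all lists were chosen with earlier results of these data known. The text names every clock gene, each gene or miRNA of the clock and response lists at an unadjusted p below 0.05, the most abundant of each list, and the 5 genes most like ARNTL and NR1D2. Some genes of the lists are not reported here. Markers named beside a count, and genes named as listed at 0, were chosen after their values were seen, as is said of any other gene outside this rule. A planned motif search in promoters was not run, since no promoter sequences were used here. The alternatives were other pseudocounts, filters and scalings, voom on recovered reads, a replicate block and leaving out pigs.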

Additional observations from a re-analysis of the deposited data

How the results depend on the processing

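PER2 was called, so that both the count of DEGs among the clock genes and the count at the adjusted p with no limit on fold were 1, with quantile normalization, with median scaling and with voom, and both were 0 in the other alternatives. At an unadjusted p below 0.05 the clock gene count of 3 became 0 with an RPKM of at least 1 in all 6 libraries, where ARNTL, CLOCK and PER2 were not tested, and ran from 2 to 5 with 1 pig left out, the 5 being without LD3. For the other clock genes the count of 1 became 0 with that filter and 2 after rescaling without RN18S, and ran from 0 to 1 with 1 pig left out. For the output genes the count of 5 ran from 3 to 5 with 1 pig left out, and was 3 without JH1 and LD3, an alternative chosen after seeing the data. The 310 DEGs among all genes became 199 with a pseudocount of 0.01, 200 with no filter, 169 without JH1 and LD3, and from 79 to 406 with 1 pig left out. The called clock miRNA count of 1 became 0 with a pseudocount of 5. The cause was not tested in these cases, except that the stricter filter and fewer pigs leave fewer genes or samples.

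ARNTL and PER2 kept their direction and an unadjusted limma p below 0.05 in all 15 alternatives that tested them, and CLOCK in 6 of 15. Of the log2 fold changes of single genes and miRNAs, 203 kept their side of an unadjusted p of 0.05, 25 no longer passed, 5 newly passed and none changed direction. Of the counts, 22 moved by over 1.5 times or to or from 0, and 85 did not. The adjusted limma p (Benjamini-Hochberg) also crossed its threshold for PER2 as above and for CYP7A1. For CYP7A1 it was 0.0236 without JH3, in a range from 0.0236 to 0.420. Among the miRNAs it crossed for ssc-miR-132 as above, for ssc-miR-219a at 0.0475 with a pseudocount of 5, and for ssc-miR-185 at 0.0361 without JH3. The planned difference of ARNTL and NR1D1 could not be computed.

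With a replicate block the clock genes had 0 DEGs, all genes 253, and ssc-miR-132 a limma adjusted p (Benjamini-Hochberg) of 0.115. Pigs with the same number correlated at -0.016, 0.052 and 0.177 in mRNA, so the numbers were not taken to pair the pigs, and not every pig correlated best with its own number. RN18S and the median log2 level did follow the number, the median being 2.36, 2.42 and 2.10 in JH and 2.35, 2.39 and 2.10 in LD. Depth limits ARNTL and CLOCK, which had 22 and 11 reads over the JH pigs. The median log2 fold change of all genes moved by over 0.1 after rescaling without RN18S, to -0.08, without JH3, to 0.15, and without JH1 and LD3, to -0.11.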
